A study of Mus musculus with 6 samples.

Results

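The genes described here make sterols and fatty acids, control that synthesis, or move sterols between cells and lipoproteins. They are 35 mouse genes listed by function: 18 of sterol synthesis, 7 of fatty acid synthesis, 5 regulators and 5 of sterol transport. A probe set naming the gene alone was found for 34 of them, of 18195 genes so named on the array. The expression of Acat2 was not analysed here. Each gene was read through the probe set of highest mean signal over the 6 arrays, and all 34 passed the filter on low signals.

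Expression was measured in whole colon of NHE3-/- mice and of their NHE3+/+ littermates, aged 6 to 8 weeks, on Affymetrix MOE430 2.0 arrays (n = 3 per genotype). NHE3, encoded by Slc9a3, is the exchanger through which the gut lining absorbs sodium from the lumen in return for protons. No treatment was given. The labels call the mutant animals NHE3-deficient and do not say which part of Slc9a3 is disrupted, whether each array came from a single animal, or the sex of the animals, so the p-values rest on the spread among these arrays, some of which may be technical.

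Cells make cholesterol from acetyl-CoA through mevalonate, isoprenoids, squalene and lanosterol. The transcription factor SREBP-2, encoded by Srebf2, drives the genes of this pathway, while SREBP-1, encoded by Srebf1, also drives fatty acid synthesis. Both are held in the endoplasmic reticulum by SCAP and the INSIG proteins when sterols are plentiful, and are carried to the Golgi and cut when sterols are scarce. The nuclear receptor LXR alpha, encoded by Nr1h3, answers to oxysterols and turns on genes that export cholesterol. The intestinal epithelium makes cholesterol and fatty acids itself as well as taking lipid up from the lumen.

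Promoters of 4 sterol synthesis enzymes and of the regulator Insig1 are shown because these genes were higher in NHE3-/- colon and because the windows share a short motif. Each is the RefSeq window (GRCm38.p6) of 300 bases, from 250 before the annotated start to 50 after it, written 5′ to 3′. Capitals mark CCAAT, the box bound by the factor NF-Y, a known partner of SREBP, on either strand (ATTGG on the other), and in Hmgcs1 also TCACNCCAC, a form of the sterol regulatory element.
Hmgcs1 (chr13:119690101-119690400, plus strand): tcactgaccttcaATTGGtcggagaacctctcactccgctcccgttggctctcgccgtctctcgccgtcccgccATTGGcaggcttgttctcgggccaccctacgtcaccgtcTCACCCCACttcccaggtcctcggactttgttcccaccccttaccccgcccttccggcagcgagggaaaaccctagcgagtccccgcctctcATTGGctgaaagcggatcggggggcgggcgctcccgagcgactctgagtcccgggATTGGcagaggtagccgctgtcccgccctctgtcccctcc
Idi1 (chr13:8885356-8885655, plus strand): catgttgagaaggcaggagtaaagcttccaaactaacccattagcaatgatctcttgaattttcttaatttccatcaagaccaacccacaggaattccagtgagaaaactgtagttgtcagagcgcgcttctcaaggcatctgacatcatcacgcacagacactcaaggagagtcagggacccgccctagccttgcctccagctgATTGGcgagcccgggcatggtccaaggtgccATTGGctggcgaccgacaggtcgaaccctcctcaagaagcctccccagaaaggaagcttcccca
Msmo1 (chr8:64733529-64733828, minus strand): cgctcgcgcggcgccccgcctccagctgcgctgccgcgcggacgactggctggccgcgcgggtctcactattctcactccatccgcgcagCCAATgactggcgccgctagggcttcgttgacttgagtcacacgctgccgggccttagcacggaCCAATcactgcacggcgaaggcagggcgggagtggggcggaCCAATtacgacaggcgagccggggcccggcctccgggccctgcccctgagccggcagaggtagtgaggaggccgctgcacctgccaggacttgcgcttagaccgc
Sc5d (chr9:42264251-42264550, minus strand): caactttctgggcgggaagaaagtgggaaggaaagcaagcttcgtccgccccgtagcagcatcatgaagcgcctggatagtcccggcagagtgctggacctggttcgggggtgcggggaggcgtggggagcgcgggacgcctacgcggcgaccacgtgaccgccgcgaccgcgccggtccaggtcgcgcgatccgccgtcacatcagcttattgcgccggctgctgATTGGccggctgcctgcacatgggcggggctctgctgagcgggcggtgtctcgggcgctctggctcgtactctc
Insig1 (chr5:28071162-28071461, plus strand): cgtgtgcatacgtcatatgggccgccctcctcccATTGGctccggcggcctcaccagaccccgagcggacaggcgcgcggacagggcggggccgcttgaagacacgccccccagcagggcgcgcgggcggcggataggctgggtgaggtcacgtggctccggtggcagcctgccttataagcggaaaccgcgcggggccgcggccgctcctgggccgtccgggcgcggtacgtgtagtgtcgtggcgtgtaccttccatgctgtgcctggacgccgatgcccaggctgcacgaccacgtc

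The Hmgcs1 window held 4 CCAAT boxes and the single TCACNCCAC match of the member windows, which began 137 bases before the start and overlapped none of the boxes. Msmo1 had 3 boxes, Idi1 had 2, and Sc5d and Insig1 had 1 each. Members that were not called on the arrays held as many, with 5 in Mvk, 3 in Hsd17b7, 3 in Fasn and 2 in Mvd. Of 15 sterol synthesis genes with windows in the table, 14 held CCAAT in at least 1 window, against 41.1% of all 27025 genes. The exception was Acat2. The count was 3 of 5 for fatty acid synthesis genes, 4 of 5 for regulators and 1 of 3 for sterol transport genes. TCACNCCAC was found in 1.44% of all genes, searched on both strands. Genes with several windows have more chances of a match, and a match is a description of letters, not a site of binding.

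On the arrays, signals were linear intensities, and fold changes below are NHE3-/- minus NHE3+/+ on the log2(signal + 31.4) scale, on which changes of faint transcripts appear too small. Each probe set was tested with limma, and a gene is called higher or lower where its Benjamini-Hochberg adjusted p over the 27022 probe sets tested was under 0.05. Of these, 4.97% were called higher and 6.24% lower, and the median log2 fold change was -0.10. Correlations of log2 signals were 0.965 to 0.973 within NHE3-/- arrays, 0.969 to 0.97 within NHE3+/+ arrays and 0.932 to 0.959 between genotypes. Slc9a3 itself gave signals of 5970.4, 4265.6 and 3665.3 on the NHE3-/- arrays, against 5908.3, 5647.4 and 6668.7 on the NHE3+/+ arrays, and was not called (log2 fold change -0.42, SE 0.16, limma adjusted p = 0.12). A second Slc9a3 probe set ran the other way, with 473.4, 608.7 and 264.9 on the NHE3-/- arrays, against 345.6, 344.8 and 107.8 on the NHE3+/+ arrays (0.76, SE 0.39, adjusted p = 0.23). Where these probes lie relative to the disruption is not known, so they do not check the label. Xist, which coats the silenced X chromosome in females, read 2639, 1929.1 and 12.3 on NHE3-/- arrays 1, 2 and 3, against 4.3, 8 and 2 on the NHE3+/+ arrays. By this signal NHE3-/- arrays 1 and 2 look female and the other arrays male, so sex and genotype cannot be fully told apart. Results were therefore also computed with Xist as a covariate and with NHE3-/- array 3 alone, a fit that takes this array to vary as the NHE3+/+ arrays do. Both fits rest mainly on NHE3-/- array 3 against the NHE3+/+ arrays, so they are not independent checks. Colon epithelium was present on all arrays, with summed signals of 5 epithelial markers of 100570 to 115655.3 in NHE3-/- colon and 93305.5 to 102806.1 in NHE3+/+ colon.

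Sterol synthesis was the class with most calls. Of 17 measured enzymes, 11 rose in NHE3-/- colon and 0 fell, and all 17 log2 fold changes were positive, with a median of 0.67 and a range of 0.06 to 1.34. All 3 NHE3-/- arrays lay above all 3 NHE3+/+ arrays for 13 of the 17, against 12.2% of all probe sets tested. The fatty acid class gave 0 calls of 7, the regulators 1 of 5 and sterol transport 1 higher and 1 lower of 5. Of all probe sets tested, 11.2% were called in either direction.

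**Figure D1:**
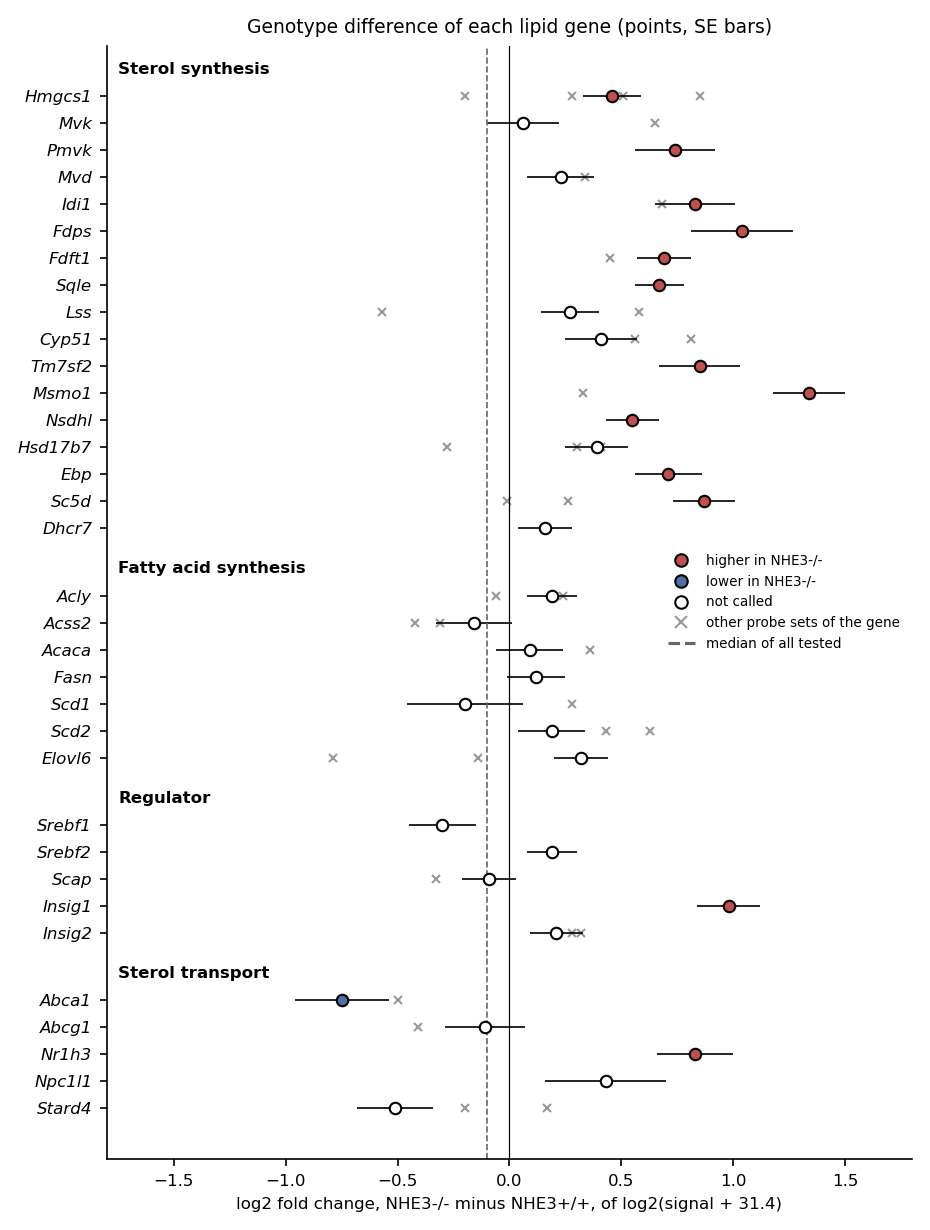
Log2 fold change of each gene, NHE3-/- minus NHE3+/+, with SE bars, by class; filled points passed the limma threshold, crosses are other tested probe sets of the gene and the dashed line is the median of all probe sets tested. Sterol synthesis genes lie to the right of 0, from 0.06 for Mvk to 1.34 for Msmo1, while fatty acid synthesis genes lie between -0.20 and 0.32.

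The mevalonate steps came first. Hmgcs1, which makes HMG-CoA from acetoacetyl-CoA, had signals of 15265.7, 18706.4 and 20273.7 on NHE3-/- arrays 1, 2 and 3, against 11624.1, 12974.1 and 14617.5 on NHE3+/+ arrays 1, 2 and 3. The groups did not overlap, and the lowest NHE3-/- array stood just above the highest NHE3+/+ array (log2 fold change 0.46, SE 0.13, limma adjusted p = 0.0393). Pmvk, phosphomevalonate kinase, had 590.1, 890.8 and 833.1 in NHE3-/- colon and 491, 396 and 444.6 in NHE3+/+ colon (0.74, SE 0.18, adjusted p = 0.0229). NHE3-/- array 1 was the lowest of its group but still above every NHE3+/+ array. Mvk, mevalonate kinase, had 497.3, 607.1 and 486.5 in NHE3-/- colon, against 489.9, 572.6 and 456.6 in NHE3+/+ colon, and the groups overlapped (0.06, 95% interval -0.29 to 0.41). Its other probe set was called higher (0.65, SE 0.16, adjusted p = 0.0288), so the 2 probe sets of Mvk disagree. Mvd, which makes isopentenyl diphosphate, was not called (0.23, 95% interval -0.10 to 0.56).

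Among the members, the enzymes of the isoprenoid and squalene steps, Idi1, Fdps, Fdft1 and Sqle, were each called higher. Idi1, which interconverts the isoprenoid building blocks, had signals of 2336.5, 3944.5 and 3622.4 in NHE3-/- colon, against 1977, 1708.6 and 1716.9 in NHE3+/+ colon (log2 fold change 0.83, SE 0.18, limma adjusted p = 0.0128). NHE3-/- arrays 2 and 3 lay far above NHE3+/+ and array 1 closer to it. Fdps, farnesyl diphosphate synthase, had 5120.9, 7264.2 and 6339.2 in NHE3-/- colon and 4398.3, 2947.4 and 2072.2 in NHE3+/+ colon (1.04, SE 0.23, adjusted p = 0.0149). The NHE3+/+ arrays were themselves spread widely for this gene, with an SD of 1175 around a mean of 3139. Fdft1, squalene synthase, had 3947.5, 5250.8 and 4370.6 in NHE3-/- colon, against 2965.7, 2830.7 and 2523.6 in NHE3+/+ colon (0.69, SE 0.12, adjusted p = 0.00605). Sqle, squalene epoxidase, a rate-limiting oxygenation, had 5008.2, 5243 and 5364.2 in NHE3-/- colon and 3765, 3119.1 and 2956.9 in NHE3+/+ colon (0.67, SE 0.11, adjusted p = 0.00421). Its NHE3-/- arrays were close together and clear of every NHE3+/+ array.

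After squalene, the calls were unevenly placed along the pathway. Lss, which closes the rings to lanosterol, averaged 887 ± 78 in NHE3-/- colon and 728 ± 45.1 in NHE3+/+ colon (SD, n = 3 each) and was not called (0.27, 95% interval -0.02 to 0.56). Cyp51, which removes the 14-methyl group of lanosterol, had 1805.6, 2934.6 and 2480.4 in NHE3-/- colon, against 1910.4, 1643.1 and 1760 in NHE3+/+ colon. NHE3-/- array 1 lay within the NHE3+/+ range and the gene was not called (0.41, SE 0.16, limma adjusted p = 0.129), but it was called without that array (0.60, adjusted p = 0.0285) and through another probe set (0.56, adjusted p = 0.0401). Tm7sf2, a sterol reductase acting after Cyp51, had 1184.7, 896.3 and 1360.5 in NHE3-/- colon and 741.9, 580.3 and 537.5 in NHE3+/+ colon (0.85, SE 0.18, adjusted p = 0.0125).

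Msmo1, the oxygenase that starts removal of the methyl groups at carbon 4, changed most among the 34 genes. Its signals were 7906.2, 10266.8 and 11985.7 on the NHE3-/- arrays and 4564.4, 3844.5 and 3362.8 on the NHE3+/+ arrays. The mean was 2.56 times the NHE3+/+ mean, at the 99.1 percentile of all log2 fold changes tested (1.34, SE 0.16, limma adjusted p = 0.000492). Nsdhl, the dehydrogenase of the same removal, had 2902.1, 3147.8 and 2976.5 in NHE3-/- colon, against 2211, 2231.7 and 1722.4 in NHE3+/+ colon (0.55, SE 0.12, adjusted p = 0.0167). Hsd17b7, the ketoreductase that ends it, averaged 873 ± 28.6 in NHE3-/- colon and 663 ± 93.3 in NHE3+/+ colon (SD, n = 3 each). Its groups did not overlap, but it was not called (0.39, 95% interval 0.08 to 0.71, adjusted p = 0.104), and this probe set is of a type marked by the manufacturer as able to cross-hybridise.

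The late steps shift and place the double bonds. Ebp, the sterol isomerase, had 4009.8, 4183.3 and 5638.1 in NHE3-/- colon, against 2965, 3039.7 and 2388.4 in NHE3+/+ colon (log2 fold change 0.71, SE 0.15, limma adjusted p = 0.012). Sc5d, lathosterol desaturase, had 2889.2, 3052.9 and 4131.8 in NHE3-/- colon and 1917.6, 1772.3 and 1713.5 in NHE3+/+ colon (0.87, SE 0.14, adjusted p = 0.00321). For both genes NHE3-/- array 3 was the highest of all 6. Dhcr7, the reductase of the last step, averaged 3476 ± 385 in NHE3-/- colon and 3099 ± 270 in NHE3+/+ colon (SD, n = 3 each), with overlapping groups (0.16, 95% interval -0.09 to 0.42). Nsdhl and Ebp lie on the X chromosome. With NHE3-/- array 3 alone, which has almost no Xist signal, Nsdhl had a log2 fold change of 0.54 and was not called (adjusted p = 0.135), while Ebp had 1.01 and was called (adjusted p = 0.0122).

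**Figure D2:**
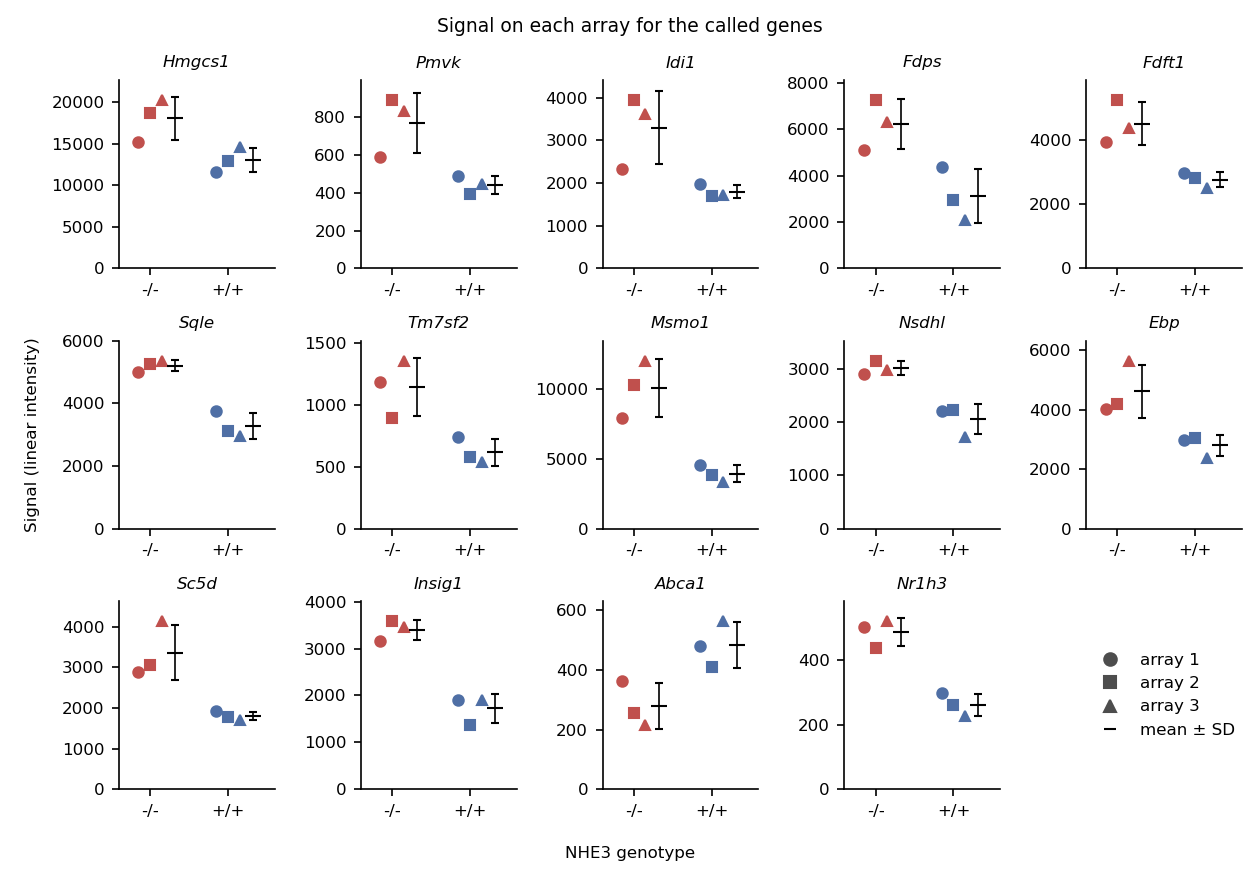
Signal, a linear intensity, of each called gene on each array, NHE3-/- left and NHE3+/+ right of each panel, with mean and SD. All 3 NHE3-/- arrays lie above all 3 NHE3+/+ arrays for 13 genes and below them for Abca1.

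NHE3-/- array 1 was the lowest of its group for 10 of the 11 called sterol synthesis enzymes. Averaged over the 17 enzymes, levels relative to the NHE3+/+ mean were 0.43, 0.68 and 0.71 on the log2 scale on NHE3-/- arrays 1, 2 and 3, against 0.12, -0.02 and -0.10 on NHE3+/+ arrays 1, 2 and 3. On NHE3-/- array 2 all 17 enzymes were above their NHE3+/+ mean, and on arrays 1 and 3 of that genotype 15 and 16 were. Of 18 other tested probe sets of these enzymes, 6 were called higher and 0 lower, beside 4.97% and 6.24% of all probe sets tested. Of the 18, 14 had the sign of the brighter probe set, which was positive for every enzyme. Over all probe sets tested, 10823 of 27022 were positive. For Hmgcs1 the other probe sets disagreed: 0.85 and 0.51 were called, the latter of the cross-hybridising type, while 0.28 and -0.20 were not.

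The count of 11 depended on the fit. It was 2 without a mean-variance trend (Msmo1 and Sc5d), 6 without NHE3+/+ array 2, 7 without NHE3-/- array 2 and 7 with Xist as a covariate. The class median was 0.67 with Xist, as in the main fit. Dropping the trend cannot move it, since that changes only the variance estimates. With Xist the calls lost were those of Pmvk (0.90), Fdps (1.09), Fdft1 (0.66, adjusted p = 0.0559) and Nsdhl (0.53). Fdft1 also lost its call without the trend (0.69, adjusted p = 0.0602). The class median was 0.65 with NHE3-/- array 3 alone, in which 8 were called, among them Msmo1 (1.61), Sc5d (1.19) and Ebp (1.01). Left-out arrays ended the call of Hmgcs1 (0.38 without NHE3+/+ array 1, 0.46 without NHE3+/+ array 2, 0.43 without NHE3-/- array 2, 0.38 without NHE3-/- array 3) and of Pmvk (0.67 without NHE3+/+ array 2, 0.74 without NHE3+/+ array 3, 0.63 without NHE3-/- array 2, 0.68 without NHE3-/- array 3). They also ended that of Idi1 (0.80 without NHE3+/+ array 2), Fdps (1.02 without NHE3+/+ array 2, 0.92 without NHE3-/- array 2), Tm7sf2 (0.81 without NHE3+/+ array 2, 0.72 without NHE3-/- array 3) and Nsdhl (0.52 without NHE3-/- array 2). With quantile normalization Hmgcs1 had 0.29 and was not called.

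Fatty acid synthesis genes gave 0 calls of 7 in either direction, beside 11.2% of all probe sets tested. At that share few or no calls are to be looked for among 7 genes. The class median log2 fold change was 0.12, against -0.10 for all probe sets tested, with a range of -0.20 to 0.32. Fasn, fatty acid synthase, had 2476.7, 2491.4 and 1986.3 in NHE3-/- colon and 2357.4, 1946.1 and 2069.1 in NHE3+/+ colon, and the groups overlapped (0.12, 95% interval -0.16 to 0.40). Acaca, acetyl-CoA carboxylase, which commits acetyl-CoA to fatty acids, had 693.5, 931.1 and 668.6 in NHE3-/- colon, against 677.8, 727.3 and 720.6 in NHE3+/+ colon (0.09, 95% interval -0.25 to 0.43). Here NHE3-/- array 2 alone stood above the NHE3+/+ arrays. The signs of Fasn and Acaca turned negative with NHE3-/- array 3 alone (-0.09 and -0.08) and with Xist as a covariate (-0.10 and -0.07), and that of Acaca without NHE3-/- array 2 (-0.05).

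The enzymes that supply acetyl-CoA were likewise not called. Acly, which makes it from citrate, had a log2 fold change of 0.19 (95% interval -0.06 to 0.44), and Acss2, which makes it from acetate, had -0.16 (-0.52 to 0.21). Of the enzymes that elongate and desaturate, Elovl6 came nearest to a call, with signals of 2734.4, 2374.1 and 2360.2 in NHE3-/- colon, against 1813.1, 1981.9 and 2186.1 in NHE3+/+ colon. These groups did not overlap (0.32, SE 0.12, limma adjusted p = 0.107), but other Elovl6 probe sets had -0.14 and -0.79. The stearoyl-CoA desaturases were not called. Scd2 had 11052.9, 15417 and 12632.1 in NHE3-/- colon, against 14151.9, 9943.6 and 10366.7 in NHE3+/+ colon (0.19, 95% interval -0.15 to 0.53). Scd1 had 641.6, 1144.1 and 787.7 in NHE3-/- colon, against 931.7, 1406 and 671.2 in NHE3+/+ colon (-0.20, 95% interval -0.76 to 0.37), a wide spread in both genotypes, and its sign turned without NHE3+/+ array 2 (0.07).

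**Figure D3:**
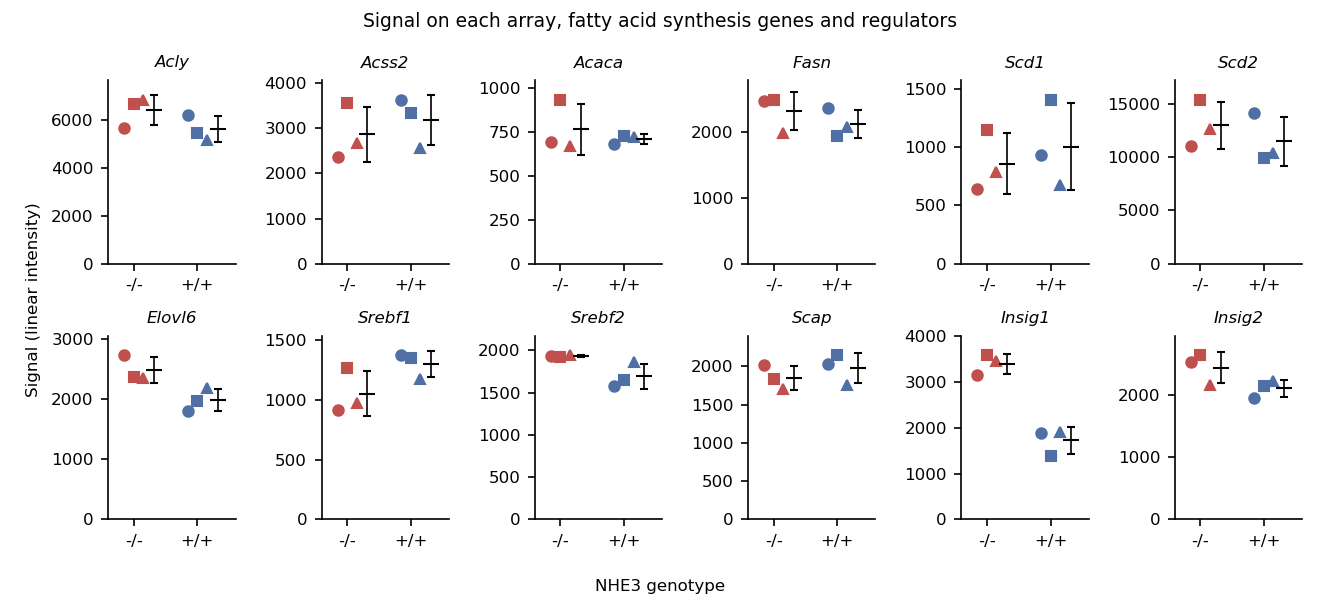
Signal, a linear intensity, of the 7 fatty acid synthesis genes and 5 regulators on each array, NHE3-/- left and NHE3+/+ right, with mean and SD; circles, squares and triangles are arrays 1, 2 and 3. Insig1 averages 3397 in NHE3-/- colon against 1724 in NHE3+/+ colon, while most other panels overlap.

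Among the regulators, Insig1 rose. This endoplasmic reticulum protein retains the SCAP-SREBP complex and is itself a target of SREBP. Its signals were 3156.4, 3582 and 3452.8 on the NHE3-/- arrays, against 1895.6, 1375.8 and 1901.4 on the NHE3+/+ arrays. The mean was 1.97 times that of NHE3+/+ colon (log2 fold change 0.98, SE 0.14, limma adjusted p = 0.00148), and the log2 fold change was 1.00 with NHE3-/- array 3 alone. Its relative Insig2 was not called (0.21, 95% interval -0.05 to 0.46), although its 2 other probe sets had 0.32 and 0.28.

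The transcription factors themselves were not called. Srebf2 had 1929.1, 1917.9 and 1939.6 in NHE3-/- colon, against 1576.8, 1647.3 and 1858.6 in NHE3+/+ colon, with no overlap but a small difference (0.19, 95% interval -0.06 to 0.43). Srebf1 had 917.9, 1263.9 and 975.5 in NHE3-/- colon and 1370.7, 1351.2 and 1171.2 in NHE3+/+ colon (-0.30, SE 0.15, adjusted p = 0.202), and NHE3-/- array 2 overlapped the NHE3+/+ range. Scap, the sterol sensor and escort, had a log2 fold change of -0.09 (95% interval -0.36 to 0.17), which was 0.00 with medians set equal on all arrays. Transcript levels do not show the cutting of the SREBP proteins.

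Sterol transport genes moved in both directions. Nr1h3 had 501.9, 438 and 520.2 in NHE3-/- colon, against 297.1, 260.1 and 227.7 in NHE3+/+ colon, with the groups well apart (log2 fold change 0.83, SE 0.17, limma adjusted p = 0.012). It was not called with NHE3-/- array 3 alone (0.92, adjusted p = 0.077) or with Xist as a covariate (0.91, adjusted p = 0.0544). Abca1, the exporter that passes cholesterol to apolipoprotein A-I and a known target of LXR, was the only member called lower. It had 363.1, 255.8 and 214.3 in NHE3-/- colon, against 477.5, 409.9 and 561.9 in NHE3+/+ colon (-0.75, SE 0.21, adjusted p = 0.0423). With NHE3-/- array 3 alone it had -1.06 and was called. The call was narrow: it was lost in 10 of 18 alternatives, among them quantile normalization (-0.60), medians set equal (-0.66) and leaving out NHE3+/+ array 1 (-0.76), 2 (-0.86) or 3 (-0.64) or NHE3-/- array 2 (-0.71) or 3 (-0.60). All NHE3-/- arrays lay below all NHE3+/+ arrays for Abca1 and Stard4, 2 of the 5 genes, against 20.1% of all probe sets tested.

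Stard4, a soluble carrier of cholesterol and a known SREBP target, had 3431.4, 3503.4 and 2187.1 in NHE3-/- colon, against 4330.2, 3928.6 and 4481.9 in NHE3+/+ colon. The groups did not overlap, but it was not called (-0.51, SE 0.17, limma adjusted p = 0.0736), except with quantile normalization (-0.57), with NHE3-/- array 3 alone (-0.95) and with Xist as a covariate (-0.97). Its other probe sets had 0.17 and -0.20. Abcg1, the exporter to high-density lipoprotein, was not called (-0.11, 95% interval -0.50 to 0.29), and its sign turned with quantile normalization (0.05). Npc1l1, the luminal cholesterol importer of the small intestine, was dim and not called (0.43, 95% interval -0.17 to 1.02). Its signals were 261.4, 436.5 and 295.4 in NHE3-/- colon, against 170.5, 204.4 and 355.2 in NHE3+/+ colon. Nr1h3, though called, was about as dim in NHE3+/+ colon, with a mean of 262 against 243 for Npc1l1.

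**Figure D4:**
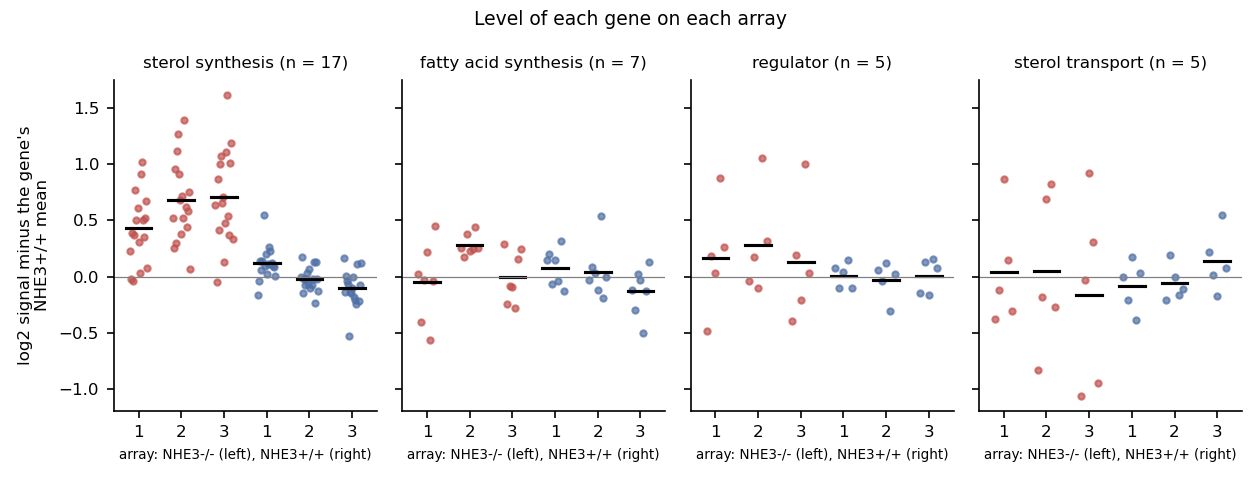
Log2 signal of each gene on each array minus the gene's NHE3+/+ mean, by class, with NHE3-/- arrays 1 to 3 left and NHE3+/+ arrays 1 to 3 right; bars are means over genes. The means of the sterol synthesis class are 0.43, 0.68 and 0.71 on the NHE3-/- arrays, while those of the fatty acid class are -0.05, 0.28 and 0.00.

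A wider list of 54 other genes of the same pathways gave 6 higher and 3 lower of 46 tested, beside 4.97% and 6.24% of all probe sets, and its median was -0.03. Its isoprenoid branch and enzyme partners, the part nearest to sterol synthesis, gave 0 higher and 1 lower of 9 tested, with a median of -0.07. Cyp27a1, the mitochondrial sterol hydroxylase that makes an oxysterol, had 1814.3, 1504.1 and 1691 in NHE3-/- colon, against 367.3, 506.4 and 421.9 in NHE3+/+ colon (log2 fold change 1.88, SE 0.15, limma adjusted p = 3.58e-05). Abcg5, a known LXR target that forms a sterol exporter of the luminal membrane with Abcg8, had 527.4, 262.8 and 518.2 in NHE3-/- colon, against 157, 133.7 and 136.2 in NHE3+/+ colon (1.37, SE 0.26, adjusted p = 0.00732). Its partner Abcg8 was not called, with overlapping groups (0.13, 95% interval -0.44 to 0.70). Both genes were dim in NHE3+/+ colon, with mean signals of 142 for Abcg5 and 157 for Abcg8. Npc2, which hands cholesterol out of lysosomes, rose by 0.67 (SE 0.11). Mylip, a ubiquitin ligase and known LXR target, fell, with 451.7, 581.6 and 414.2 in NHE3-/- colon, against 941, 955.7 and 1182.7 in NHE3+/+ colon (-1.05, SE 0.16, adjusted p = 0.00278). The LXR targets and sterol transport genes of the wider list gave 3 higher and 1 lower of 12 tested.

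Among partners of fatty acid synthesis, Fads2, a desaturase of polyunsaturated fatty acids and known SREBP target, had 2181.6, 2715.6 and 2519.2 in NHE3-/- colon, against 1467.5, 1471.8 and 941.9 in NHE3+/+ colon (0.94, SE 0.17, limma adjusted p = 0.00627). The elongation enzymes Hsd17b12 (0.54, SE 0.11) and Elovl1 (0.40, SE 0.11) also rose. The Elovl1 probe set, like that of Hsd17b7, is of the type marked as able to cross-hybridise. Me1, malic enzyme, which supplies NADPH for lipid synthesis, fell, with 616.5, 557.9 and 423 in NHE3-/- colon, against 1232.2, 1434.4 and 1725.3 in NHE3+/+ colon (-1.41, SE 0.17, adjusted p = 0.000598). Cyb5r3, a reductase that feeds electrons to desaturases, fell by 0.41 (SE 0.11, log2 scale). It was listed with the isoprenoid branch and enzyme partners and was the lower call of that part. The 3 genes listed for SREBP processing, which are the proteases Mbtps1 and Mbtps2 that cut the precursors and, listed with them, the carbohydrate-responsive factor Mlxipl, were not called.

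In whole tissue, fewer cells of a type and less RNA per cell cannot be told apart, and markers of several cell types moved with genotype. Over all probe sets tested, 4.97% were called higher and 6.24% lower, the shares to set beside the counts below. Of 8 absorptive colonocyte markers tested, 4 rose and 0 fell, and their summed signal was 196146.6 to 252537.4 in NHE3-/- colon, against 149713.7 to 184594.3 in NHE3+/+ colon. Of 7 markers of dividing cells tested, 0 rose and 5 fell (summed 4364.7 to 5743.2 in NHE3-/- colon, against 7968.9 to 9071.7 in NHE3+/+ colon), and of 5 crypt base markers tested 2 fell (summed 1191 to 1358.2 in NHE3-/- colon, against 1651.7 to 2111 in NHE3+/+ colon). Adipocyte markers, which mark cells that make fatty acids, gave 1 higher and 3 lower of 5 tested, with sums of 993.5 to 1538.1 in NHE3-/- colon and 1842 to 6333.2 in NHE3+/+ colon. Without Car3, the brightest of them, the sums overlapped, at 837.6 to 972.8 in NHE3-/- colon and 945.5 to 3025 in NHE3+/+ colon. The drop did not rest on Car3 alone, since Fabp4 (log2 fold change -2.08) and Adipoq (-1.77) were also called lower. Cidec was called higher (0.97) and Lipe was not called (-0.21), and the list's median was -1.77. Macrophage markers, from cells that express Abca1 and Nr1h3, gave 1 higher and 0 lower of 7 tested, with sums of 4898 to 7151.8 in NHE3-/- colon and 2808.8 to 3940.3 in NHE3+/+ colon. Cd14, the marker called higher, carried that gap: without it the sums overlapped, at 1651.6 to 2138.3 in NHE3-/- colon and 1518.2 to 2572.3 in NHE3+/+ colon, and the list's median log2 fold change was 0.00. Lep, Cd163 and Olfm4 had mean signals below 31.4. The part of these cell types in the results above was not tested.

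Markers of tissues that could have been dissected along with the colon were mostly not called. The same held for smooth muscle and B cells, which whole colon itself contains. Of all probe sets tested, 4.97% were called higher and 6.24% lower. Squamous and skin markers gave 0 calls of 4 tested (sums 3507.9 to 3731.3 in NHE3-/- colon, against 2209.3 to 3382.2 in NHE3+/+ colon), with Krt1 and Flg below 31.4 in mean signal. Sprr1a gave 78.3% of that summed signal, and without it the sums overlapped, at 585.8 to 750.3 in NHE3-/- colon and 630.6 to 817 in NHE3+/+ colon. Krt14 was under the filter on low signals and not tested. Its signals were 4.1, 11.1 and 4.1 on the NHE3-/- arrays, against 62.6, 63.7 and 79.8 on the NHE3+/+ arrays. Sebaceous gland markers gave 0 calls of 2, with sums of 308 to 452.4 in NHE3-/- colon and 366.5 to 400.6 in NHE3+/+ colon. Small intestine markers gave 0 of 5, with 18084 to 24523.3 in NHE3-/- colon and 21980 to 27955.2 in NHE3+/+ colon. Fabp2 (log2 fold change -0.30) gave 89.3% of that sum, whereas the list's median was 0.99, with Apoa4 at 1.06, Fabp6 at 1.01 and Apoc3 at 0.99, and without Fabp2 the sums overlapped, at 2581.6 to 3518.3 in NHE3-/- colon and 813.6 to 4262.8 in NHE3+/+ colon. Smooth muscle markers gave 0 of 4, with 1115.9 to 2137.5 in NHE3-/- colon and 1371.4 to 1551.3 in NHE3+/+ colon. B cell markers gave 1 lower of 4, with 406.3 to 1153 in NHE3-/- colon and 1102.2 to 3052.9 in NHE3+/+ colon. Liver markers gave 1 lower of 4, with 785.3 to 1386 in NHE3-/- colon and 1154.6 to 1351.7 in NHE3+/+ colon.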

How the data were processed

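Whole colon RNA was isolated with Trizol and turned into biotinylated cRNA, per the labels' protocols, and each sample has its own array. The deposited intensity values are linear signals per probe set; GCOS, Affymetrix software, is named per the submitters' processing notes, and the sources used here do not give its settings. A scaling by the authors is visible: the mean after trimming 2% at each end was 500 on each of the 6 arrays, and array medians ran from 97.8 to 121.4. Scale is linear, arrays are not centred, and no ratio direction applies.

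From these, log2(signal + 31.4) was taken, where 31.4 is the 25th percentile of all values. Of 45101 probe sets, 64 array controls and those under the 40th percentile of mean log2 signal were left out, and 27022 were tested with limma 3.58.1 in R 4.3.3 (two-sided, genotype alone in the model, mean-variance trend, Benjamini-Hochberg). The script was tested on simulated data. Intervals are 95% intervals of the log2 fold change. Arrays give no read depth, and their number limits the precision.

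The platform annotation pairs 34958 probe sets with a single gene and 932 with several, and the others have no name. Gene IDs of 34754 of the 34958 matched RefSeq (GRCm38.p6). A gene was read through its probe set of highest mean linear signal. All members were to be named, wider-list genes only where called, and marker lists by counts and sums. Of the wider list, Abcg8 and the genes of SREBP processing were also named, though not called. Members and lists were chosen with earlier results of these data known, so their counts are descriptions and carry no test of their own. Replicate numbers did not pair the arrays: deviations of same-numbered arrays from their group means correlated at 0.0264, -0.0375 and 0.00343. Alternatives covered scaling, pseudocount, filter, variance model, probe set choice, left-out arrays, replicate block and Xist.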

Additional observations from a re-analysis of the deposited data

How the results depend on the processing

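Of 612 member values under 18 alternatives, 548 kept direction and side of the threshold, 44 lost a call, 6 gained one and 14 changed sign, none of the last in a called gene. The filters, the fit without a trend and the replicate block cannot change a log2 fold change, only its p. All 14 called genes kept their direction, and 3 (Msmo1, Sc5d and Insig1) kept their call under every alternative. Taking the probe set of smallest p cannot lose a call, so it does not check these 3. Other probe sets of Sc5d had 0.26 and -0.01 and that of Msmo1 had 0.33, none of them called. Insig1 has no other probe set. Reversed values were those of Mvk (-0.03 to 0.15 over left-out arrays, -0.05 with the Xist covariate and -0.05 with NHE3-/- array 3 alone), Lss (-0.57) and Scd1 (0.28) through the probe set of smallest p, Scap (0.00, medians set equal), Abcg1 (0.05, quantile normalization), Scd1 (-0.44 to 0.07 over left-out arrays), Acaca (-0.05 to 0.18 over left-out arrays, -0.07 with Xist, -0.08 with array 3 alone) and Fasn (-0.10 with Xist, -0.09 with array 3 alone). The cause was not tested.

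Sterol synthesis genes called higher numbered 2 without a trend, 7 with Xist and 6 to 12 over left-out arrays. Sterol transport genes called lower numbered 0 with medians set equal, no filter, no trend or the replicate block, 0 to 1 over left-out arrays, and 2 with Xist or NHE3-/- array 3 alone, where 0 were higher. The replicate block left the 11 sterol synthesis calls at 11 and took the Abca1 call (-0.75, adjusted p = 0.0559); the samples share only a number. The wider list had 2 higher without a trend. Probe sets called higher over all tested were 1342 as reported, 511 without a trend, 767 with NHE3-/- array 3 alone and 839 to 1211 over left-out arrays; those lower were 1685, 839 with medians set equal, 558 without a trend and 774 to 1385. Medians set equal gave 1595 higher, and quantile normalization 1335 higher and 1335 lower; the median of all tested was -0.01 and -0.02 in these. Fatty acid synthesis genes gave 0 calls under every alternative, where few are to be looked for among 7 genes at the main share of 11.2%.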
